A study of Mus musculus with 12 samples.

Results

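The genes described here are 10 transcripts of the NF-kB pathway that mark its own feedback or carry its inflammatory output: the inhibitors Nfkbia and Tnfaip3, the Rel family members Nfkb1, Nfkb2 and Relb, the survival gene Birc3, and the effectors Il1b, Ptgs2, Lcn2 and Saa3. They were chosen by name, and each was read from the array feature (probe set) that the platform table assigns to its symbol. Of the 10, 9 were measured among 19505 gene symbols, each by 1 probe set; Nfkb1 was not analysed here. Values are log2 signals, so a difference of 1 is a change of 2-fold.

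The samples were mouse neurons of the trigeminal ganglion (TG), which relays touch and pain from the face, grown as primary cultures on coverslips coated with laminin. Every culture was transfected, with scramble miRNAs as the control or else with miR-21, with miR-34a or with miR-324, and total RNA was hybridised to 12 Clariom S mouse arrays, 3 for each of the 4 groups. The labels give no strain, age, time after transfection, miRNA arm or dose. They do not say that arrays came from separate cultures or animals either, so the p-values rest on a spread among arrays that may be technical. Each comparison of a miRNA with scramble used the same 3 scramble arrays.

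NF-kB dimers are held in the cytoplasm by inhibitor proteins until receptors for cytokines or microbial products activate a kinase that has the inhibitor destroyed. The freed dimers switch on genes of inflammation and survival, and with them their own inhibitors, so that Nfkbia and Tnfaip3 transcripts are read as signs of recent pathway activity. In sensory ganglia the pathway works in neurons and in the glia, endothelium and immune cells around them.

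The mature miRNAs of the 3 loci are listed in RefSeq on GRCm38.p6, and their 5-prime arms are shown to identify the miRNAs; the labels do not say which arm was transfected. The seed, bases 2 to 8, is in capitals, and the 3 seeds differ.
miR-21a-5p: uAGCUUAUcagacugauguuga
miR-34a-5p: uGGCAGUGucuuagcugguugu
miR-324-5p: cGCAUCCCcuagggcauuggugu

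A promoter sequence was found in the RefSeq table for 8 of the 9 measured genes, 11 sequences in all, and the 250 bases before each start were searched on both strands for the kB consensus, the general form of the NF-kB site. It stood in 3.9% of the 32851 such windows of all genes (1281 windows) and in 5 of the 11 windows here. These 5 belong to 3 of the 8 genes, Nfkbia, Nfkb2 and Tnfaip3, and 3 of them to the 3 listed starts of Nfkb2. The last 130 bases before the start are shown for Nfkbia, at chr12:55492648-55492777, and for the upstream start of Tnfaip3, at chr10:19015411-19015540, both on the minus strand of GRCm38.p6 and outside the listed span of the gene. Capitals mark the matches.
Nfkbia: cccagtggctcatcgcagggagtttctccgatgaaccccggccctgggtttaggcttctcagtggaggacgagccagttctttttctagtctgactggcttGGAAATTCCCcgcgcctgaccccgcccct
Tnfaip3: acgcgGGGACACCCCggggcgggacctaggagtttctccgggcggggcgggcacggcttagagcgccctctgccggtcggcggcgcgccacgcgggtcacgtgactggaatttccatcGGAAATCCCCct
In Nfkbia the match covers the bases 29 to 20 before the start, on the strand opposite to the gene, where it reads GGGAATTTCC. The match of Tnfaip3 nearest its start covers the bases 12 to 3 before it, also on the opposite strand, and reads GGGGATTTCC. In Nfkb2 the match nearest the first listed start covers the bases 11 to 2 before it, on the gene's own strand, and reads GGGGCTTTCC. Birc3, Il1b, Ptgs2, Lcn2 and Saa3 held no match in these windows. A match of letters is a description and not a measured site.

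The arrays were not alike within their groups. The labels of scramble 1 and 2 and miR-34a 1 and 2 share a suffix, called suffix A here, those of scramble 3 and miR-324 2 share another, suffix B, and the other 6 carry none. The suffix B labels, and no others, also hold the word mimic, which cannot be told apart from the suffix. All 11 pan-neuronal markers stood above background on every array, with a median per array from 10.19 (miR-34a 3) to 15.18 (scramble 2), so the labelled cell type was present throughout. Neutrophil markers (9 of 10 measured) had medians of 9.15 to 10.58 on the 4 suffix A arrays and 3.83 to 4.77 on the other 8. Macrophage markers (16 of 17 measured) had medians of 7.37 to 7.83 on suffix A arrays and 4.55 to 5.31 elsewhere. Endothelial markers (9 of 10 measured) had medians of 11.92 to 13.95 on scramble 3, miR-34a 3 and the 3 miR-324 arrays and 9.59 to 10.01 on the other 7. Prl, the pituitary hormone prolactin, stood at 14.26 to 15.17 on scramble 3 and the miR-324 arrays and at 3.37 to 4.83 on the others. Eif2s3y, a gene of the Y chromosome, read 2.13 to 2.96 on the 6 arrays with a suffix and 5.13 to 8.53 on the 6 without. The 5.13, on miR-324 4, was under the background guide of that array (5.44, defined below). In such bulk samples fewer cells of a type and less RNA per cell cannot be told apart. As a guide to background, probes of 1414 olfactory and vomeronasal receptors had a 95th percentile of 4.87 to 5.80 per array.

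Among the inhibitors, Nfkbia was lowest with miR-21 and highest with miR-324. Nfkbia encodes the inhibitor that holds NF-kB in the cytoplasm and is resynthesised when the pathway fires. It read 10.61, 10.48 and 11.94 in scramble 1, 2 and 3, then 10.10, 9.95 and 10.42 with miR-21. With miR-34a the values were 10.19, 10.23 and 11.87 (arrays 1, 2 and 3), and with miR-324 they were 12.38, 11.80 and 12.19 (arrays 1, 2 and 4). The group means were 10.16 ± 0.24 (SD, n = 3) with miR-21, 10.76 ± 0.96 with miR-34a, 11.01 ± 0.81 with scramble and 12.12 ± 0.30 with miR-324. Scramble 3 and miR-34a 3 stood apart from the other arrays of their groups, by 1.39 and 1.66, and lay near the miR-324 arrays.

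Tnfaip3, which encodes an enzyme that edits ubiquitin on signalling proteins and so ends NF-kB activation, had the same order at its ends. It read 8.41, 8.44 and 8.08 in scramble, 7.46, 6.56 and 7.83 with miR-21, 7.74, 7.67 and 9.42 with miR-34a, and 10.81, 8.33 and 8.70 with miR-324. All miR-21 arrays lay below all scramble arrays, while the miR-324 arrays overlapped scramble and were spread over the widest range, with miR-324 1 highest. The means were 7.28 ± 0.65 for miR-21, 8.28 ± 0.99 for miR-34a, 8.31 ± 0.20 for scramble and 9.28 ± 1.34 for miR-324 (SD, n = 3).

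Of the Rel family, Nfkb2 encodes the precursor used by the alternative pathway, and its pattern was not that of the inhibitors. It read 7.02, 6.89 and 7.73 in scramble and 8.82, 8.27 and 9.22 with miR-21, where Nfkbia and Tnfaip3 were lowest. With miR-34a it read 6.75, 6.79 and 8.65, and with miR-324 8.75, 7.95 and 8.33. The miR-21 and the miR-324 arrays lay above every scramble array, and only miR-34a 3 did so in its own group. The means, from low to high, were those of scramble (7.21 ± 0.45), miR-34a (7.40 ± 1.09), miR-324 (8.34 ± 0.40) and miR-21 (8.77 ± 0.48, SD, n = 3).

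Relb, the partner of the Nfkb2 product, was close to background. Its values ran from 4.92 to 5.87 and stood above the receptor guide in 5 of 12 arrays, at least 1 in each group. The group means lay between 5.17 ± 0.25 (scramble) and 5.47 ± 0.19 (miR-21), within the spread of single arrays.

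Birc3, which encodes an inhibitor of apoptosis that also acts as a ubiquitin ligase in NF-kB signalling, varied by 0.05 to 0.20 (SD) within scramble, miR-21 and miR-324. It read 8.66, 8.56 and 8.61 in scramble, 7.57, 7.38 and 7.57 with miR-21, 8.56, 8.36 and 9.64 with miR-34a, and 9.12, 9.51 and 9.37 with miR-324. The miR-21 arrays were below and the miR-324 arrays above all 3 scramble arrays. The means were 7.51 ± 0.11, 8.61 ± 0.05, 8.85 ± 0.69 and 9.33 ± 0.20 for miR-21, scramble, miR-34a and miR-324 (SD, n = 3). Birc3 differed by 0.00 between scramble 3 and the mean of scramble 1 and 2. Between miR-34a 3 and the mean of miR-34a 1 and 2 it differed by 1.18. The endothelial median was 11.92 on scramble 3 and 13.29 on miR-34a 3, but single markers were not alike there. Cdh5 read 15.59 and 15.57, Kdr 12.23 and 15.27, and Vwf 8.04 and 11.56. Cldn5 (11.92 and 9.12) and Tek (9.08 and 8.03) were lower on miR-34a 3. On scramble 1 and 2, Kdr read 11.98 and 12.29 and Vwf 7.68 and 8.14, near scramble 3.

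Among the effectors, Lcn2, which encodes a protein that binds bacterial iron carriers and is made by neutrophils and inflamed tissue, had by far the widest range, from 4.36 to 15.05. It read 15.05, 12.91 and 9.46 in scramble 1, 2 and 3 and 13.36, 12.85 and 6.47 in miR-34a 1, 2 and 3. With miR-324 it read 7.53, 10.23 and 8.36, and with miR-21 4.36, 5.25 and 4.85. All 3 miR-21 values were below the receptor guide of their array and the other 9 above it, so the miR-21 level is only a bound. Sizes against it are given as "at least", from the other group's mean to the mean guide of the miR-21 arrays (5.43), beside the adjusted p of the fit on the measured values. Such a bound allows for background only, and not for the spread among arrays. For Lcn2 the 4 suffix A arrays were the 4 highest.

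As a list, neutrophil markers followed a like division, but not every marker did. Their summed level was 7.95 to 14.37 in scramble, 7.77 to 8.08 with miR-21, 8.21 to 13.13 with miR-34a and 7.70 to 8.39 with miR-324, the upper ends in scramble and miR-34a being suffix A arrays. S100a8, a neutrophil calcium-binding protein, read 12.81, 9.81 and 5.05 in scramble and 3.19 to 3.92 with miR-21. Mmp9, also on the list, read 5.86, 4.76 and 3.85 in scramble and 6.19, 3.97 and 5.88 with miR-21. Camp was under the guide on every array, and Cxcr2 stayed between 4.95 and 5.82. Outside suffix A, Lcn2 still stood at 6.47 to 10.23 on the scramble, miR-34a and miR-324 arrays, where the neutrophil median was 3.94 to 4.77. The part of neutrophils in the Lcn2 values was not tested.

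**Figure D1:**
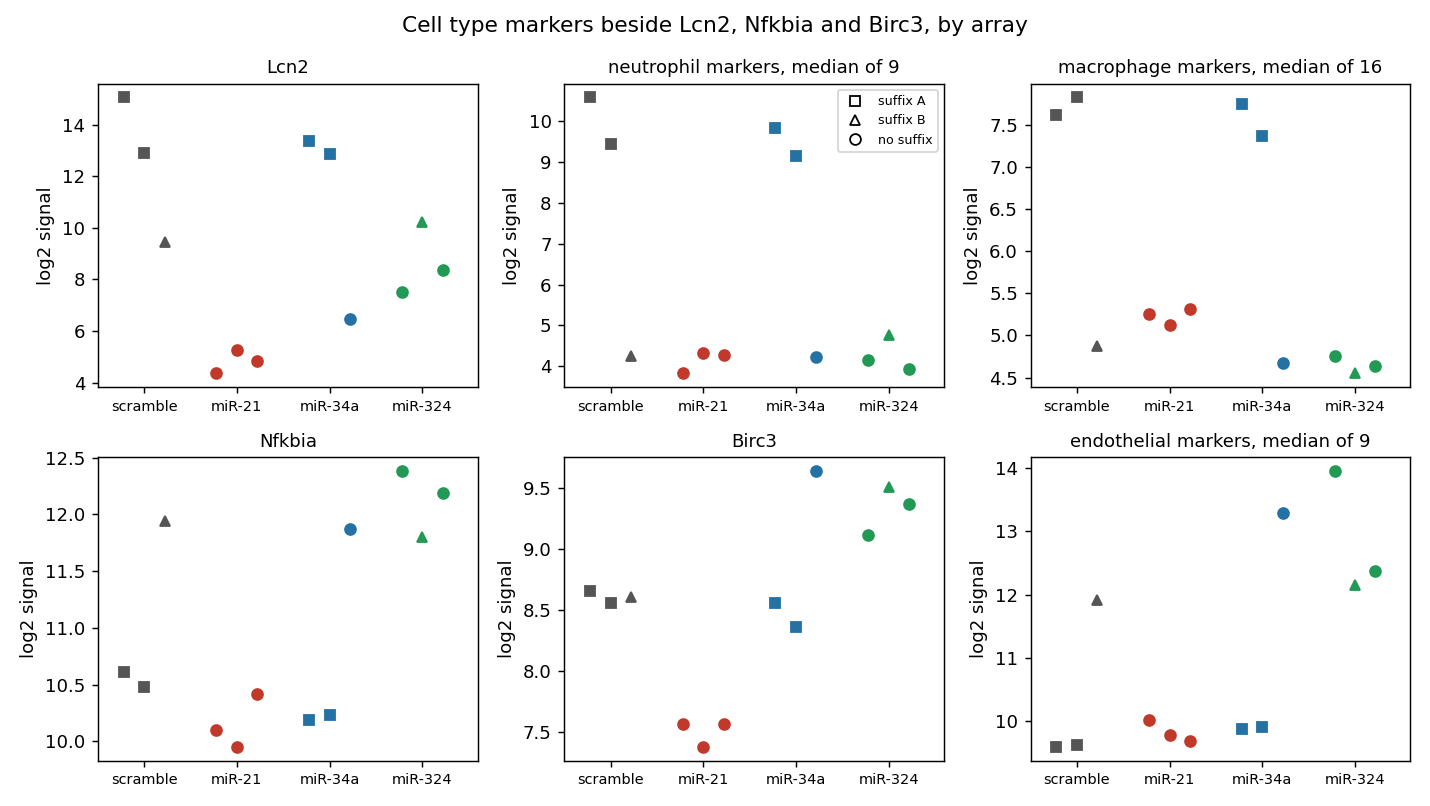
Log2 signal of Lcn2, Nfkbia and Birc3 and the median log2 signal of neutrophil, macrophage and endothelial markers in each of the 12 arrays; each point is 1 array, and squares, triangles and circles mark label suffix A, suffix B and no suffix. Lcn2 was highest on the 4 suffix A arrays, as were neutrophil and macrophage markers, while Nfkbia was highest on the 5 arrays with endothelial medians of 11.92 to 13.95.

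Ptgs2, the inducible cyclooxygenase that makes prostaglandin precursors, was bright on every array. It read 13.75, 13.19 and 14.93 in scramble, 14.77, 14.07 and 14.30 with miR-21, 13.36, 13.25 and 13.60 with miR-34a, and 15.09, 14.05 and 14.47 with miR-324. The miR-34a arrays lay below all miR-21 and all miR-324 arrays and overlapped scramble. Group means were 13.40 ± 0.18, 13.96 ± 0.89, 14.38 ± 0.36 and 14.54 ± 0.52 for miR-34a, scramble, miR-21 and miR-324 (SD, n = 3).

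Il1b, the cytokine interleukin-1 beta, was above the receptor guide in all 12 arrays and spanned 0.95 in all, from 5.70 to 6.65. Its means were 6.11 ± 0.37 with miR-21, 6.26 ± 0.26 with miR-324, 6.30 ± 0.27 with miR-34a and 6.44 ± 0.22 with scramble, and all groups overlapped. Saa3, an acute-phase serum amyloid protein made by macrophages and stromal cells, passed the guide in 5 of 12 arrays. It was highest in scramble 3 (7.63) and miR-324 2 (6.12), the 2 suffix B arrays, and between 4.53 and 5.63 elsewhere.

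**Figure D2:**
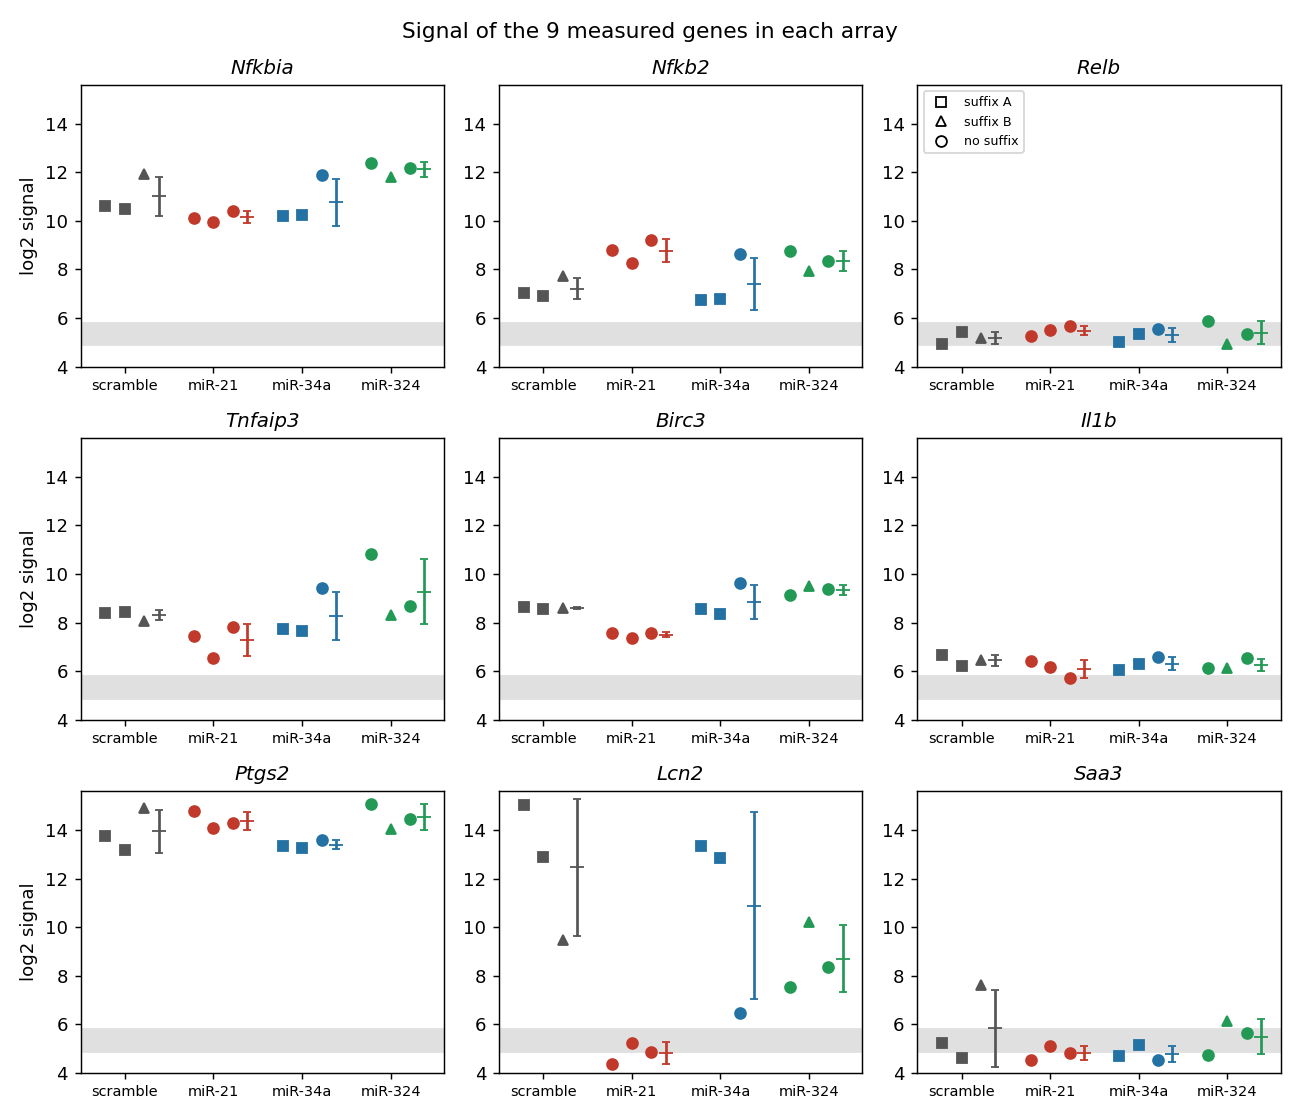
Log2 signal of the 9 measured genes in each array (points; squares, triangles and circles mark label suffix A, suffix B and no suffix) with the group mean and SD (n = 3) to the right of each group; the grey band is the range over arrays of the 95th percentile of olfactory and vomeronasal receptor probes, 4.87 to 5.80. Birc3 separates miR-21 from scramble and miR-324 with little spread, the miR-21 values of Lcn2 lie in or below the band, and 11 of 12 Relb values and 10 of 12 Saa3 values do too.

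With miR-21 against scramble, no measured gene of the 9 was called (limma, Benjamini-Hochberg adjusted p under 0.05 over all 19572 named probe sets), where 1.04% of all probe sets were (204). Lcn2 missed the threshold (adjusted p = 0.0501), with a mean lower by at least 7.05 (scramble mean 12.47, single arrays 9.46 to 15.05). The interval of the fit on its measured values was −11.24 to −4.07. Birc3 differed by −1.10 (SE 0.30, interval −1.74 to −0.46, adjusted p = 0.0938) and Nfkb2 by 1.56 (SE 0.47, interval 0.53 to 2.58, adjusted p = 0.13). Nfkbia differed by −0.85 and Tnfaip3 by −1.03, with adjusted p of 0.38 and 0.42. Relb, Il1b and Ptgs2 had differences from −0.33 to 0.42, and with Saa3, under the guide on all 3 miR-21 arrays, adjusted p of 0.43 to 0.62.

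The groups did not overlap for 5 of the 9 genes, 4 lower with miR-21 (Nfkbia, Tnfaip3, Birc3 and Lcn2) and 1 higher (Nfkb2), against 25.6% of all probe sets. For Nfkbia the nearest arrays were miR-21 3 at 10.42 and scramble 2 at 10.48. The median difference of the 9 was −0.85, or −0.41 with Lcn2 and Saa3 at their bounds, against 0.13 for all. Marker lists also differed between these groups. Schwann cell markers (5 of 7 measured) had medians of 13.85 to 14.40 with miR-21 and 9.95 to 10.95 in scramble, and summed levels of 16.96 to 17.37 and 15.11 to 16.69. Mural cell markers (8 of 8) had summed levels of 17.33 to 17.36 and 10.73 to 15.30, with medians that overlapped. Tagln (16.52 to 16.62 and 6.71 to 12.94) and Acta2 (15.80 to 16.03 and 8.12 to 14.55) were the brightest with miR-21. The other mural markers did not all follow. Cspg4 was higher with miR-21 (9.55 to 10.50 against 6.57 to 7.96) and Rgs5 lower (6.41 to 7.23 against 7.74 to 8.49). Pan-neuronal markers had medians of 12.62 to 13.40 and 13.50 to 15.18. The part of these cell types in the differences of the 9 genes was not tested. No miR-21 array shares a suffix with a scramble array, so within a suffix the groups cannot be compared. With the suffix as a fixed block, which borrows the suffix effect from the other groups, limma called 684 of 19572 probe sets. Nfkbia (−2.15, adjusted p = 0.00183), Tnfaip3 (−2.57, adjusted p = 0.0471) and Birc3 (−1.64, adjusted p = 0.0284) were among them. Lcn2 was not (adjusted p = 0.06), and Nfkb2 was 0.16. On measured values, under the guide with miR-21, Lcn2 differed by −2.45 (SE 0.65) with the block and by −7.65 without it. That suffix effect rests on single arrays: scramble 3, miR-34a 3 and miR-324 2 each differ in suffix from the rest of their group. Without scramble 3, limma called 78 of 19572 probe sets, and Lcn2 passed (lower by at least 8.55, adjusted p = 0.0463). Nfkbia then shrank to −0.39 (adjusted p = 0.67), while Tnfaip3 (−1.14), Birc3 (−1.10) and Nfkb2 (1.81) did not shrink.

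With miR-34a against scramble, 0 of the 9 genes and 0.0% of all probe sets were called by limma, and 286 probe sets had an unadjusted p under 0.05. Differences ran from −1.58 (Lcn2, interval −5.17 to 2.01) to 0.24 (Birc3, interval −0.40 to 0.88), all with adjusted p of 1.00. No gene of the 9 separated the groups, where 5.8% of all probe sets did, and the median difference was −0.14 against 0.04 for all. Since scramble 1 and 2 and miR-34a 1 and 2 share suffix A, these 4 arrays compare the groups within 1 suffix. There the 9 differences lay between −0.88 (Lcn2, interval −2.03 to 0.28) and 0.00 (Relb), and limma again called 0 probe sets (762 at an unadjusted p under 0.05). Tnfaip3 differed by −0.72 (interval −1.21 to −0.23) on these arrays, 7.71 against 8.43, with an adjusted p of 1.00.

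The miR-34a values turned on miR-34a 3, which carries no suffix. It differed from the mean of miR-34a 1 and 2 by −6.64 in Lcn2, 1.88 in Nfkb2, 1.71 in Tnfaip3, 1.66 in Nfkbia and 1.18 in Birc3. Within scramble the array without suffix A, scramble 3, differed from the other 2 by −4.52 in Lcn2, 2.69 in Saa3, 1.46 in Ptgs2 and 1.39 in Nfkbia. For each gene named, these gaps between arrays of 1 group were larger than its difference between miR-34a and scramble.

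With miR-324 against scramble, limma called 0 of the 9 genes and 0.0% of all probe sets, with 2877 at an unadjusted p under 0.05. Nfkbia (1.11, SE 0.46), Nfkb2 (1.13, SE 0.47) and Birc3 (0.72, SE 0.30) had intervals above 0 and adjusted p of 0.32 each. Lcn2 differed by −3.77 (SE 1.65, adjusted p = 0.33) and Tnfaip3 by 0.97 (SE 0.62, adjusted p = 0.46). Nfkb2 and Birc3 were higher in every miR-324 array than in every scramble array, 2 of 9 genes against 19.9% of all probe sets. The median difference was 0.58, against 0.09 for all.

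The suffix B arrays, miR-324 2 and scramble 3, give the only pair of these groups within a suffix, with 1 array each and so no test. On that pair Birc3 was higher with miR-324 by 0.90 and Lcn2 by 0.77, Nfkbia differed by −0.14, Nfkb2 by 0.22 and Tnfaip3 by 0.25. With the suffix as a fixed block the differences in Nfkbia, Nfkb2 and Tnfaip3 were −0.04, −0.01 and −0.03, Lcn2 was 0.69 and Birc3 0.26.

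Most calls were made between 2 of the miRNAs. With miR-324 against miR-21, Birc3 rose by 1.83 (SE 0.30, interval 1.19 to 2.47, adjusted p = 0.00928), which is 3.55-fold, and Nfkbia by 1.97 (SE 0.46, interval 0.96 to 2.98, adjusted p = 0.0476), or 3.91-fold. These 2 of 9 genes compare with 2.46% of all probe sets (481). Birc3 was called in all 6 fits that left out 1 array of the groups, with adjusted p of 0.0217 to 0.0499. Nfkbia was called in none of the 6, whichever of miR-21 1, 2 and 3 and miR-324 1, 2 and 4 was left out (adjusted p 0.0961 to 0.16), nor with each array centred on its median (2.03, adjusted p = 0.0507).

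Tnfaip3 differed by 2.00 (SE 0.62, adjusted p = 0.13) and Lcn2 was higher by at least 3.28 (adjusted p = 0.30), and both, with Birc3 and Nfkbia, had groups that did not overlap: 4 of 9 genes against 21.4% of all probe sets. Nfkb2, Relb, Il1b and Ptgs2 differed by −0.43 to 0.16, and with Saa3 had adjusted p of 0.70 to 0.93. The median of the 9 was 0.67, or 0.16 with Lcn2 and Saa3 at their bounds, against −0.05 for all. On the arrays without a suffix, miR-324 1 and 4 against the 3 miR-21 arrays, limma called 863 of 19572 probe sets. There Nfkbia differed by 2.13 (adjusted p = 0.00256), Birc3 by 1.74 (0.00612 likewise adjusted), Tnfaip3 by 2.47 (0.046) and Lcn2 by at least 2.52 (0.00134). Tnfaip3 read 10.81 on miR-324 1 and 8.70 on miR-324 4. When miR-324 1 was left out of the fit of all groups, its difference was 1.23.

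Endothelial markers were higher with miR-324 than with miR-21: their summed level was 16.78 to 18.30 with miR-324, 14.00 to 14.62 with miR-21, 14.12 to 16.52 with scramble and 14.29 to 17.44 with miR-34a. Cdh5, the endothelial cadherin, read 16.80, 15.65 and 15.98 with miR-324 and 12.94, 12.45 and 13.12 with miR-21. Vwf overlapped, at 11.91, 8.13 and 10.49 with miR-324 and 8.77 to 9.22 with miR-21. Schwann cell medians were 10.64 to 12.94 with miR-324, below those with miR-21. Scramble 3 and miR-34a 3, the other 2 arrays with high endothelial medians, had Nfkbia levels of 11.94 and 11.87, in the range of miR-324. They differed in Birc3, 8.61 and 9.64, and also in the endothelial markers Kdr (12.23 and 15.27) and Vwf (8.04 and 11.56). The endothelial markers Cldn5 (11.92 and 9.12) and Tek (9.08 and 8.03) differed in the opposite direction. On miR-324 2, with the highest Birc3 of the miR-324 arrays (9.51), Kdr read 13.24 and Vwf 8.13. The part of endothelial and Schwann cells, and of the pituitary transcripts on the miR-324 arrays, in these 2 calls was not tested.

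**Figure D3:**
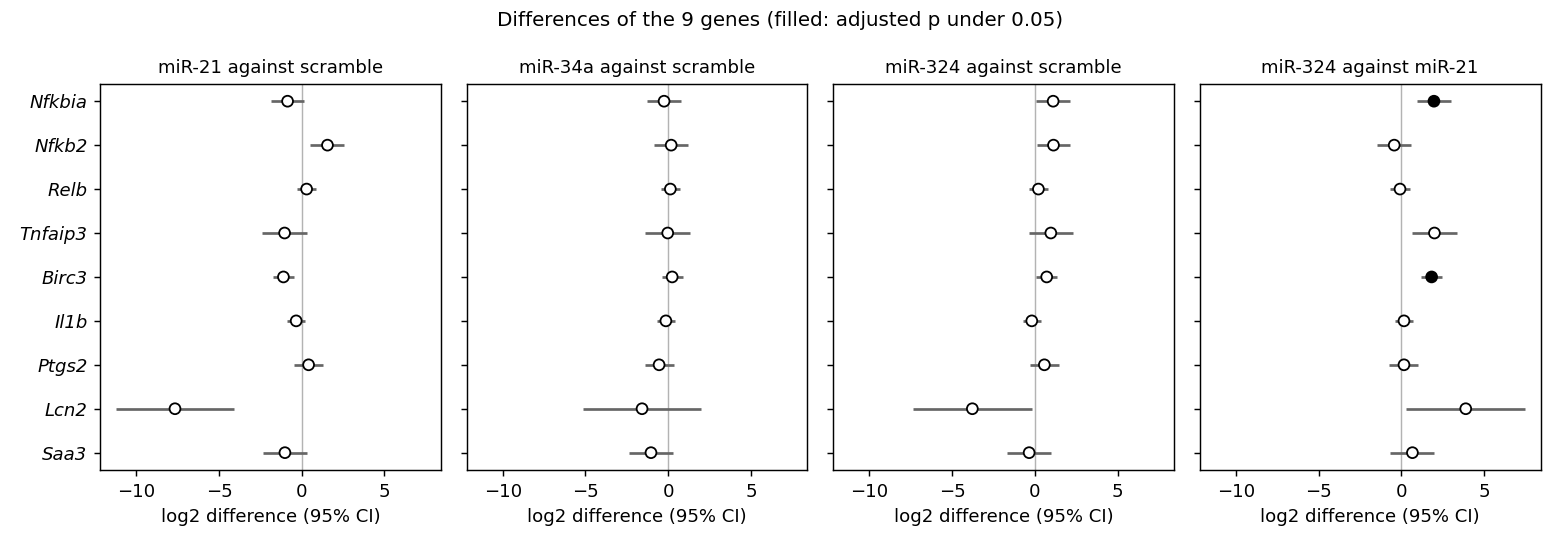
Log2 difference (points) with its 95% confidence interval (bars) from limma for the 9 genes in 4 comparisons; filled points passed an adjusted p of 0.05. The filled points are Birc3 (1.83) and Nfkbia (1.97) in miR-324 against miR-21, and Lcn2 has the widest intervals; its points against miR-21, as those of Saa3, rest on miR-21 signals under the guide and show no measured size.

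With miR-34a against miR-21, 0 of 9 genes were called by limma against 0.158% of all probe sets (31), with 4 of the 9 at an unadjusted p under 0.05. Birc3 differed by 1.35 (SE 0.30, adjusted p = 0.10), Lcn2 by at least 5.47 (adjusted p = 0.20), Nfkb2 by −1.37 (adjusted p = 0.32) and Ptgs2 by −0.98 (adjusted p = 0.40). Birc3, Lcn2 and Ptgs2 had groups that did not overlap, 3 of 9 against 17.0% of all probe sets; the median difference was 0.20 against −0.08. Without miR-34a 3, Lcn2 (at least 7.68, adjusted p = 0.00571) and Birc3 (0.95, adjusted p = 0.0428) were called higher with miR-34a, and Nfkb2 fell by 2.00 (adjusted p = 0.015). That fit called 537 of 19572 probe sets. Against miR-21 on arrays of no suffix, miR-34a 3 alone read higher by 2.13 in Birc3, 1.71 in Nfkbia and 2.14 in Tnfaip3 and differed by −0.12 in Nfkb2.

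With miR-34a against miR-324, limma called 0 of 9 genes and 0.0% of all probe sets, with 2544 at an unadjusted p under 0.05. Nfkbia differed by −1.36 (SE 0.46, adjusted p = 0.32) and Ptgs2 by −1.13 (SE 0.40, adjusted p = 0.33). Ptgs2 alone of the 9 separated the groups, where 17.1% of all probe sets did, and the median was −0.70 against −0.03. Without miR-34a 3, Nfkbia (−1.91, adjusted p = 0.0382), Nfkb2 (−1.57, adjusted p = 0.0403) and Birc3 (−0.87, adjusted p = 0.0494) were called, with 801 of 19572 probe sets called in all.

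The rest of the pathway was read from 72 further genes, of which 65 were measured. In miR-21 against scramble, 2 were called lower and none higher, where 1.04% of all probe sets were called, 70 lower and 134 higher. These were Nfkbid, a nuclear inhibitor-like protein (adjusted p = 0.0203), and Irak3. Irak3, a decoy kinase that dampens Toll-like receptor signalling, fell by 2.05 (SE 0.37, adjusted p = 0.0251). Nfkbid read 4.84, 5.18 and 5.31 in scramble and 4.06, 3.10 and 3.25 with miR-21 (all under the receptor guide), and scramble 1 was under it too, so no size is given for Nfkbid. Irak3 read 9.66, 9.58 and 10.47 in scramble and 8.19, 7.20 and 8.16 with miR-21, with no overlap. Leaving out 1 array at a time kept the Nfkbid call in 2 of 6 fits (adjusted p 0.0339 to 0.0823) and the Irak3 call in 0 of 6 (0.051 to 0.0931).

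Over the 65 genes the mean was lower with miR-21 for 43 and higher for 22, where 38.4% of all probe sets were lower and 61.5% higher. The median difference was −0.30, against 0.13 for all probe sets. It was −0.22 over the 57 genes above the guide in at least 1 array of these groups, with bounds where 1 group was under it. By role, the 13 inhibitors and feedback genes had a median of −0.37 and the 16 receptors and adaptors −0.35, while the 5 kinases had 0.80, with 1 called in each of the former 2 lists and 0 in the last. The 2 remaining Rel subunits gave no call: Rela read 15.43 to 15.53 in scramble and 15.72 to 15.85 with miR-21, and Rel 9.03 to 9.11 and 8.90 to 9.16.

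In miR-324 against miR-21, 4 of the 65 were called higher and none lower, where 2.46% of all probe sets were called, 224 higher and 257 lower. Casp4, an inflammatory caspase that senses bacterial lipopolysaccharide in the cytoplasm, rose by 2.25 (SE 0.45, adjusted p = 0.0241), Irak3 by 1.84 (SE 0.37, adjusted p = 0.0228) and Zfp36, which destabilises cytokine mRNAs, by 1.11 (SE 0.25, adjusted p = 0.0395). Nfkbid was called too (adjusted p = 0.005), with no size given, since it read 5.69, 5.54 and 5.19 with miR-324, above the guide of its array in miR-324 2 alone. Casp4 read 8.67, 8.51 and 8.53 with miR-324 and 6.31, 5.72 and 6.94 with miR-21. Zfp36 read 9.27, 9.17 and 9.18 with miR-324 and 8.17, 7.68 and 8.45 with miR-21. Neither overlapped. Leaving out 1 array at a time kept Nfkbid in 6 of 6 fits, Irak3 and Casp4 in 1 of 6 each and Zfp36 in 0 of 6. The mean was higher with miR-324 for 45 of the 65 and lower for 19, where 44.9% of all probe sets were higher and 55.0% lower. The median was 0.31, or 0.23 over 57 genes with bounds as above, against −0.05 for all.

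**Figure D4:**
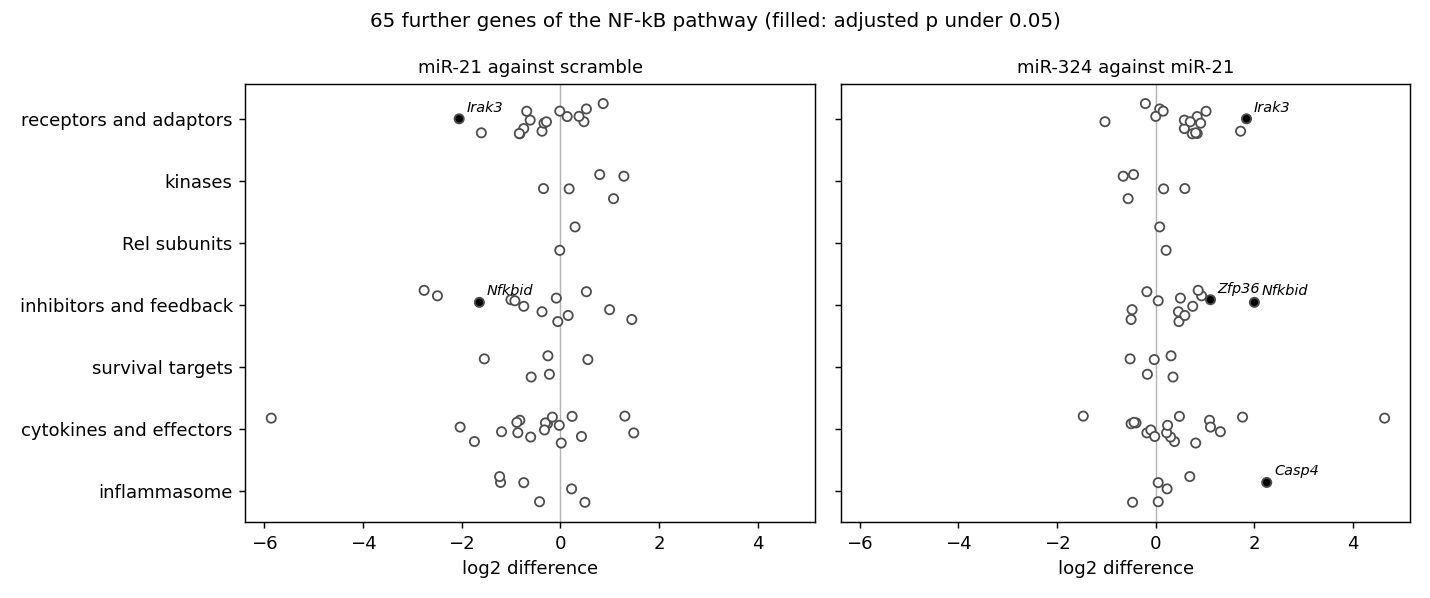
Log2 difference of each of the 65 further NF-kB pathway genes (points), by role, in miR-21 against scramble and in miR-324 against miR-21; filled, named points passed an adjusted p of 0.05. Nfkbid and Irak3 are filled on the left of 0 in the first panel and on the right in the second, where Casp4 and Zfp36 join them; Nfkbid lies under the guide with miR-21 and its position shows no measured size, and the miR-21 arrays enter both panels.

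The other comparisons gave few calls in this list. In miR-34a against scramble 0 of 65 passed, the smallest p belonging to Socs3, a cytokine signalling inhibitor (−0.77, adjusted p = 1.00), and Map3k8, a kinase acting downstream of Toll-like receptors (−0.62, adjusted p = 1.00). In miR-324 against scramble 0 of 65 passed: Cd40, a receptor of the alternative pathway, differed by 0.98 and Tab2, an adaptor of the activating kinase complex, by 0.67, each with an adjusted p of 0.31. In miR-34a against miR-21, Nfkbid alone passed, higher with miR-34a (adjusted p = 0.0495; no size given), and 2 of 6 fits that left out 1 array kept this call (adjusted p 0.0219 to 0.23). In miR-34a against miR-324 none passed, with Cd40 at −0.86 and Tlr3, the receptor for double-stranded RNA, at −1.48 (adjusted p = 0.32 each). Among the miR-34a arrays Cd40 was above the guide in miR-34a 1 alone, so its size is uncertain.

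For the 6 of the 9 genes that spanned at least 2 log2 units, the 3 genes of most similar profile were sought among 17124 others, by the root mean square difference between profiles centred on their own means over the 12 arrays. For Nfkbia, whose own spread on this measure was 0.89, they were Gch1 and Bend7 (0.24 each) and Parvb (0.26). For Birc3 (spread 0.73) they were Abcc4 (0.28), Atp8b1 (0.30) and Slc38a2 (0.31), and for Nfkb2 (spread 0.84) Map4k4, Pcnx and Nr4a2 (0.29 each). Nr4a2, a nuclear receptor induced by activity, read 10.02 to 11.62 in scramble and 12.11 to 12.37 with miR-21. For Tnfaip3 (spread 1.02) they were Erap1 (0.40), Srgn (0.43) and Ly6e (0.44), and for Saa3 (spread 0.86) Trim15 (0.34), Ptger2 (0.40) and Uap1 (0.42).

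For Lcn2 (spread 3.52) the most similar genes were S100a8 (1.15), Ngp (1.50) and Adam8 (1.65). S100a8 and Ngp, a neutrophil granule protein, are on the list of neutrophil markers, and Ngp read 12.51, 10.13 and 3.73 in scramble and 3.14 to 3.83 with miR-21. The 12 arrays share groups and suffixes, so these likenesses describe the arrays.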

How the data were processed

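The deposited values are log2 signals per probe set that the authors made with Transcriptome Analysis Console 4.0 and RMA (robust multi-array average), per the submitters' processing notes; RMA brings arrays to a common distribution, so a change in total signal is lost, and differences near background are understated. Array medians were 5.91 to 6.06, and no 2 arrays held identical values. The number of arrays (3 per group) limits the precision.

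Of 22206 probe sets, 19572 carry 1 gene symbol in the platform table and were tested; 2634 were unnamed and left out. A gene was read from its probe set of highest mean. All 12 arrays entered 1 limma fit (limma 3.58.1 in R 4.3.3, lmFit and eBayes, two-sided, 8 residual degrees of freedom) with 6 comparisons of groups and Benjamini-Hochberg adjustment over the 19572. The fit was tested on simulated data. Scramble 3 is numbered 1 in its label beside suffix B and is named here by its leading array number.

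The genes and lists were chosen with earlier results of these data known. Named were the 9 measured genes in every comparison and, of the wider list, up to 4 called genes of each direction by size, or the 2 of smallest p where none was called. Likeness was sought for genes spanning at least 2 log2 units, with placeholder symbols left out. S100a8, Ngp, Cdh5, Prl and Eif2s3y stand as examples of markers. Kdr, Vwf, Cldn5, Tek, Mmp9, Camp, Cxcr2, Tagln, Acta2, Cspg4, Rgs5, Rela, Rel, Nr4a2, Il6 and Bcl3 were named after their values were seen. Replicate numbers did not pair the samples: deviations from group means of 15 same-numbered pairs correlated at −0.41 to 0.47. The alternatives were repeated quantile normalization, centring, bright probe sets only, a variance trend, array weights, the 2 groups alone, symbol means, replicate and suffix blocks, subsets by suffix, another call rule and leaving out each array. Promoter windows came from RefSeq (GRCm38.p6); a window is printed only where it lies outside the listed gene span. The build behind the platform table is not given in the sources used here, so no gene coordinates are printed.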

Additional observations from a re-analysis of the deposited data

How the results depend on the processing

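In this text counts are of the 9 genes and of the 65 further genes at an adjusted p under 0.05 (limma), and the causes of the shifts were not tested. For miR-21 against scramble (0 of 9 and 2 of 65), array weights gave 3 and 17, the 2 groups alone 3 and 9, the suffix as a fixed block 3 and 4, and an unadjusted p under 0.05 with at least 2-fold 3 and 13. Repeated quantile normalization, centring, bright probe sets and a variance trend each gave 1 of 9, the suffix as a random block 0 of 65, the replicate block 1 of 9 and 1 of 65, and leaving out 1 array 0 to 1 of 9 and 0 to 1 of 65. For miR-324 against scramble (0 and 0), array weights gave 4 and 13, the unadjusted rule 3 and 5, and leaving out 1 array 0 to 3 of 65, the 3 without scramble 3. For miR-34a against miR-21 (0 and 1), array weights gave 4 and 13, the fixed suffix block 2 and 8, the unadjusted rule 3 and 8, and leaving out 1 array 0 to 3 and 0 to 7, the highest without miR-34a 3. There bright probe sets, a variance trend, the 2 groups alone, the random suffix block and the replicate block gave 0 of 65. For miR-324 against miR-21 (2 and 4), centring gave 1 of 9, array weights 4 and 13, the fixed suffix block 4 and 9, arrays without a suffix 4 of 9, the unadjusted rule 4 and 12, and leaving out 1 array 1 of 9 throughout and 1 to 4 of 65. For miR-34a against miR-324 (0 and 0), array weights gave 5 and 10, the unadjusted rule 2 and 3, and leaving out 1 array 0 to 3 of each, the 3 without miR-34a 3. In miR-34a against scramble no alternative called any of either list. Over all genes, array weights raised the calls most, from 204 to 2390 in miR-21 against scramble and from 0 to 2589 and 2806 in miR-324 against scramble and miR-34a against miR-324; leaving out 1 array gave 11 to 81 in the first, 383 in the second without scramble 3 and 801 in the third without miR-34a 3.

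Of 924 differences of the 9 genes under other settings, 56 changed sign, none of them a called one. With the suffix as a fixed block these were Relb −0.22 and Ptgs2 −0.23 (miR-21 against scramble); Nfkb2 −0.07 and Relb −0.07 (miR-34a against scramble); Nfkbia −0.04, Nfkb2 −0.01, Relb −0.11, Tnfaip3 −0.03, Ptgs2 −0.04 and Lcn2 0.69 (miR-324 against scramble); Relb 0.15 and Saa3 0.18 (miR-34a against miR-21); Relb 0.11 (miR-324 against miR-21); and Relb 0.04, Lcn2 −1.53 and Saa3 0.07 (miR-34a against miR-324). With array weights they were Nfkb2 −0.18 and Birc3 −0.10 (miR-34a against scramble), Saa3 0.32 (miR-324 against scramble), Saa3 0.17 (miR-34a against miR-21), Ptgs2 −0.03 (miR-324 against miR-21) and Il1b −0.18 (miR-34a against miR-324). On suffix A arrays alone the fit gave Nfkb2 −0.18 and Birc3 −0.15. In miR-34a against miR-21, Saa3 was 0.10, 0.01 and 0.06 with repeated quantile normalization, centring and a random suffix block. In miR-324 against miR-21, the replicate block gave Relb 0.01 and Il1b −0.01, and arrays without a suffix Relb 0.14. The replicate block ended no call of the 9 genes. Leaving out 1 array gave ranges across 0 in miR-34a against scramble for Nfkbia (−0.80 to 0.22), Nfkb2 (−0.44 to 0.51), Tnfaip3 (−0.61 to 0.27), Birc3 (−0.15 to 0.49) and Lcn2 (−3.09 to 0.63), and in miR-324 against scramble for Relb (−0.02 to 0.44) and Saa3 (−0.95 to 0.56). They did so in miR-34a against miR-21 for Il1b (−0.01 to 0.36) and Saa3 (−0.21 to 0.11), in miR-324 against miR-21 for Relb (−0.32 to 0.14), Il1b (−0.05 to 0.32) and Ptgs2 (−0.12 to 0.40), and in miR-34a against miR-324 for Relb (−0.31 to 0.15) and Il1b (−0.10 to 0.19). Signals of Relb, Saa3 and miR-21 Lcn2 near background limit what their differences show.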

Other observations

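Il6, the cytokine interleukin-6 and a target of NF-kB, stood outside the naming rule and was picked after its values were seen. It read 10.05, 9.83 and 12.61 in scramble, 4.93, 5.18 and 4.79 with miR-21, 10.12, 10.14 and 5.92 with miR-34a, and 6.00, 12.03 and 10.80 with miR-324. The miR-21 arrays lay below all scramble arrays, and miR-34a 3 and miR-324 1 read near the miR-21 level. The miR-21 values were all under the receptor guide of their arrays, as with Lcn2, so the level with miR-21 was lower than in scramble by at least 5.40 (scramble mean 10.83, guide 5.43), and the limma adjusted p of 0.0716 missed the threshold. Unlike Lcn2, Il6 was highest on the suffix B arrays, scramble 3 and miR-324 2, where neutrophil marker medians were 4.26 and 4.77.

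Bcl3, an inhibitor family member that acts in the nucleus, was likewise picked after its values were seen. It read 10.09, 10.78 and 8.82 in scramble, 7.58, 6.53 and 8.10 with miR-21, 9.98, 10.41 and 7.81 with miR-34a, and 7.81, 8.93 and 8.25 with miR-324. Its 4 highest values were those of the suffix A arrays.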
